A study of Mus musculus with 2 samples.

Results

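The miRNA genes Mir7-1, Mir7-2, Mir7b and Mir671 encode the microRNAs that meet the circular RNA Cdr1as in neurons, and their levels were measured in the young mouse hippocampus. They are 4 of the 2202 miRNA genes in the count tables, and were taken by matching their Ensembl identifiers to GENCODE M21, with no use of their measured values. Short RNA, in a stated size range below 30, was sequenced from hippocampal tissue of 25-day-old females of the strain B6CASTF1/J, in 2 libraries. This strain crosses C57BL/6J with CAST/EiJ, and the labels give no treatment and no engineered allele. They speak of a hippocampal layer that they do not name, number the libraries as biological replicates 1 and 2, and put them in 1 group. Each library has its own tissue sample under a shared donor entry, so the labels do not settle whether separate animals were used. There is no condition to compare. The questions open to these data are how high each gene stood, how the genes stood to each other, and how far the libraries differed.

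In this circuit miR-7 represses many mRNAs in neurons and in endocrine cells such as those of the pancreatic islets. Cdr1as, a circular RNA made from the strand opposite the Cdr1 gene, carries a dense array of sites for the miR-7 seed, the bases at the 5′ end of a microRNA that choose its targets. miR-671 pairs with Cdr1as over nearly its whole length and directs its cleavage. Oip5os1, a long noncoding RNA also called Cyrano, pairs with both ends of miR-7 and triggers its destruction. The tables hold miRNA genes only, so levels of Cdr1as, Cyrano and the mRNA targets were not analysed here.

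The mature microRNAs show which reads can tell these genes apart, and are printed with bases 2 to 8, the seed, in capitals (RefSeq, GRCm38.p6, which is the mm10 assembly). An arm is the strand cut from the 5′ side (5p) or the 3′ side (3p) of the hairpin.
miR-7a-5p, from both Mir7-1 and Mir7-2: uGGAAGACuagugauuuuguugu
miR-7b-5p, from Mir7b: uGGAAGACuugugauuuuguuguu
miR-7a-1-3p, from Mir7-1: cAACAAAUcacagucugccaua
miR-7a-2-3p, from Mir7-2: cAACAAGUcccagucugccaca
miR-7b-3p, from Mir7b: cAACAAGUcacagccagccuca
miR-671-5p, from Mir671: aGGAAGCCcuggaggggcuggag
miR-671-3p, from Mir671: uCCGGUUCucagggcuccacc

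The 5p arms of the miR-7 genes share 1 seed, which no other gene of the RefSeq miRNA table carries, so they form a family of 3 genes. miR-7b-5p differs from miR-7a-5p by the single substitution A10U, counted from 1 at the 5′ end, and by 1 more base at its 3′ end. The 3p arms differ more, with 3 substitutions between miR-7a-1-3p and miR-7a-2-3p (A7G, A10C and U21C) and 4 between miR-7a-2-3p and miR-7b-3p. The seed of miR-671-5p belongs to Mir671 alone in that table, and so does that of miR-671-3p.

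Mir7-1 and Mir7-2 make the same 5p microRNA. Their hairpins share a run of 24 bases that holds all of miR-7a-5p, and no window of 20 bases that reaches beyond it. Aligned end to end, 75 of 109 columns were identical. Both hairpins are printed with the mature arms in capitals.
Mir7-1 hairpin: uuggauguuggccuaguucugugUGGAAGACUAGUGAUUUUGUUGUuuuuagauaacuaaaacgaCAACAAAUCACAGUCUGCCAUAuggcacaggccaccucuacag
Mir7-2 hairpin: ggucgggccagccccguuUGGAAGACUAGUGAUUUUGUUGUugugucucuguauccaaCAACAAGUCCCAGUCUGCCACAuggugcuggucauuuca

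Every window of 20 bases inside miR-7a-5p, 4 of 4, occurred in both hairpins. None of the 3 windows inside miR-7a-1-3p or the 3 inside miR-7a-2-3p did. For Mir7b and Mir671, none of 92 and 79 windows occurred in another of the 4 hairpins, and the longest run that Mir7b shares with either miR-7a hairpin was 14 bases. The tables keep reads that match several places out of the gene counts, and such reads were 41.9% of all reads in replicate 1 and 46.4% in replicate 2. A read of miR-7a-5p itself can therefore be in neither gene's count, and the counts of Mir7-1 and Mir7-2 below hold what matched a single place. They are no measure of miR-7a-5p. How many reads of miR-7a-5p there were was not analysed here.

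**Figure D1:**
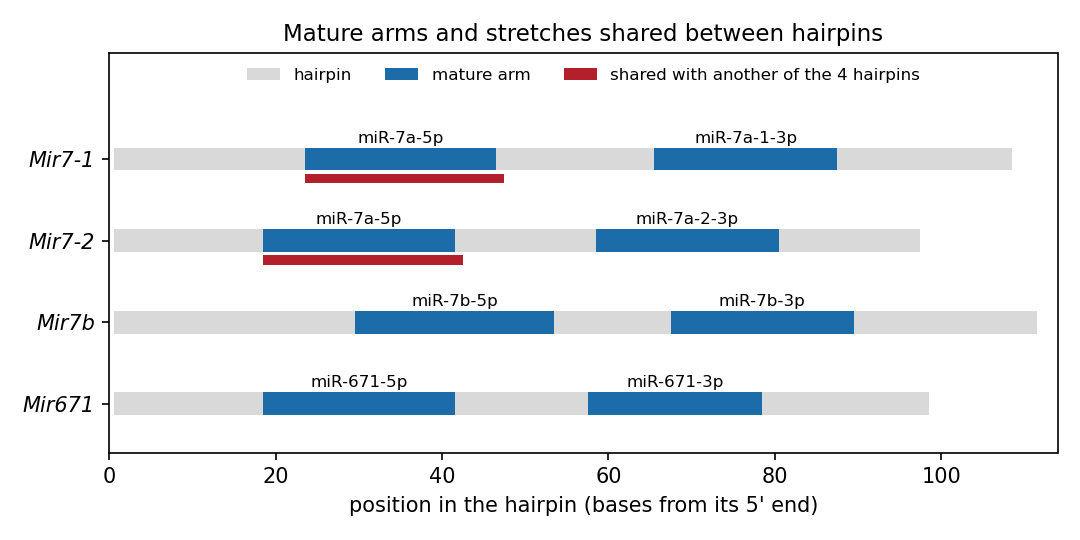
Map of the 4 hairpins (grey, position in bases from the 5′ end) with the mature arms (blue) and the stretch shared with another of the 4 (red). The red stretch covers miR-7a-5p and 1 base beyond it in Mir7-1 (bases 24 to 47) and Mir7-2 (bases 19 to 42), and is missing from Mir7b and Mir671.

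Replicate 1 held 5481053 counts in gene rows of the main strand and replicate 2 held 4266963. CPM are counts per 1000000 of these. A gene was called detected at 2 CPM or more in each library, and 433 genes were, all 4 described here among them. A fixed list of 19 neuron-enriched miRNA genes had 16 detected and summed to 6.23% of gene counts in replicate 1 and 8.39% in replicate 2. Some of its genes have arms that also occur whole at another locus, and reads of such arms can be missing from this sum. Its 3 highest genes by mean CPM were Mir149 (23202 ± 13707 CPM, SD, n = 2), Mir128-1 (16713 ± 7221) and Mir132 (10590 ± 9266). Replicate 2 stood apart in epithelial genes, whose list of 7 summed to 0.0111% in replicate 1 and 0.627% in replicate 2, with none at 0, and in the sensory Mir183 cluster, at 0.00283% and 0.184%. The oligodendrocyte list of 3 summed to 0.650% in replicate 1 and 0.0939% in replicate 2. In replicate 1 most of that sum was Mir219a-2, at 4960 CPM there and 119 CPM in replicate 2. In replicate 2 most of it was Mir338, at 1530 CPM in replicate 1 and 765 CPM in replicate 2. Mir219a-1 was at 12.4 and 54.8 CPM, lower in replicate 1. Lists for endothelial and mural cells (2.20% and 1.29%), microglia and blood (0.207% and 0.117%) and choroid plexus and ciliated cells (0.0982% and 0.230%) differed less in their sums. Within the choroid plexus and ciliated list, Mir449a stood apart, at 101 CPM in replicate 1 and 1139 CPM in replicate 2. The other 4 genes of that list with enough counts to be tested were less than 2-fold apart. Of the 8 microglia and blood genes 3 were at least 2-fold higher in replicate 1 and 3 at least 2-fold lower, with a median log2 ratio of -0.27, and Mir150 (1215 and 397 CPM) made up most of the sum in replicate 1. Mir219a-1, Mir219a-2, Mir338, Mir150 and Mir449a are named after their values were seen. The part of these differences in the values below was not tested. In bulk tissue, fewer cells of a type and less RNA per cell cannot be told apart.

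Mir7b stood highest of the 4 genes in both libraries, by reads that matched a single place. It had 13239 counts in replicate 1 and 6077 in replicate 2, which is 2415 CPM (95% exact Poisson interval 2374 to 2457) and 1424 CPM (1389 to 1460), with a mean of 1920 ± 701 CPM (SD, n = 2). It ranked 65 of 2202 genes in replicate 1 and 97 in replicate 2. Intervals here take in the error of counting alone. They treat each read as a separate molecule, so they are too narrow if reads include copies made by PCR. Mir7b (ENSMUSG00000065491.1) lies on chromosome 17 of mm10 from 56242988 to 56243098 on the plus strand, outside any other annotated gene, 183 bases beyond the end of the lincRNA AC026385.1 on the same strand.

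Mir671 was close behind. It had 12804 counts in replicate 1 and 3952 in replicate 2, which is 2336 CPM (2296 to 2377) and 926 CPM (898 to 956), with a mean of 1631 ± 997 CPM (SD, n = 2) and ranks of 68 and 113. Mir671 (ENSMUSG00000076387.1) lies on chromosome 5 from 24592114 to 24592211 on the plus strand. It sits in an exon of 2 of the 6 annotated transcripts of Chpf2, which encodes an enzyme of chondroitin synthesis, and opposite an exon of 1 of the 9 transcripts of Smarcd3, a subunit of the BAF chromatin remodelling complex. The opposite strand column gave it 0 counts in both libraries, which allows up to 3 counts in each, so reads from the Smarcd3 strand were not detected in it. The whole Mir671 hairpin also occurs on the same strand in Chpf2 transcripts. Fragments of Chpf2 RNA can therefore be in the Mir671 counts, and their part was not tested.

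Mir7-2 had 1105 counts in replicate 1 and 1927 in replicate 2, which is 202 CPM (189.9 to 214) and 452 CPM (432 to 472), with a mean of 327 ± 177 CPM (SD, n = 2) and ranks of 171 and 142. It (ENSMUSG00000065609.1) lies on chromosome 7 from 78888277 to 78888373 on the plus strand and outside other genes, 7481 bases before Aen, which encodes an apoptosis-enhancing nuclease. Mir7-1 was the lowest of the 4, with 321 counts in replicate 1 and 822 in replicate 2, which is 58.6 CPM (52.3 to 65.3) and 193 CPM (179.7 to 206), a mean of 126 ± 94.8 CPM (SD, n = 2) and ranks of 228 and 195. Mir7-1 (ENSMUSG00000065434.1) lies on chromosome 13 from 58392779 to 58392886 on the minus strand, within Hnrnpk and in no exon of its 34 annotated transcripts. Hnrnpk encodes a widely expressed RNA-binding protein.

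**Figure D2:**
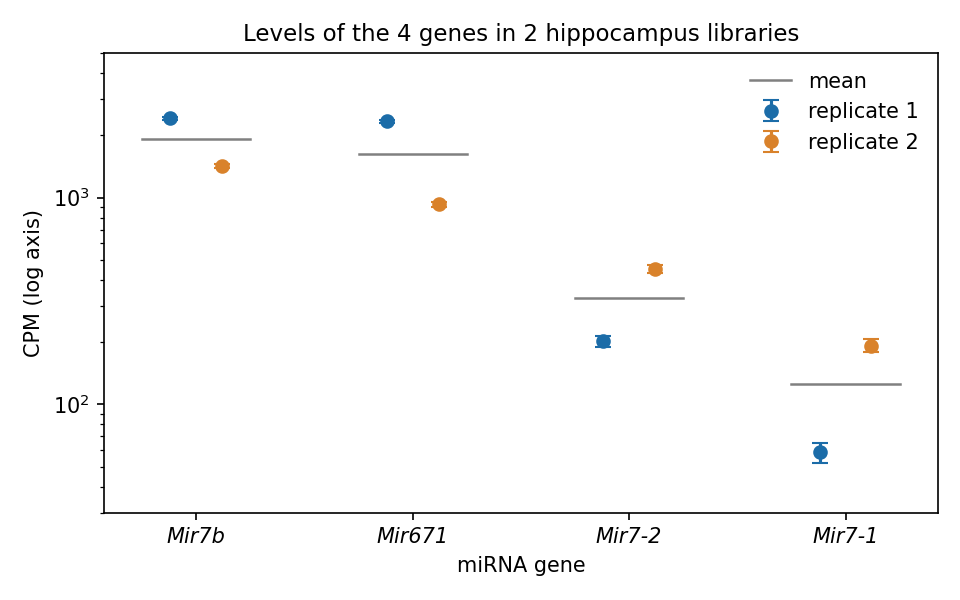
CPM (log axis) of each gene in replicate 1 (blue) and replicate 2 (orange), with 95% exact Poisson intervals, and the mean of both (grey line). Mir7b and Mir671 lie between 926 and 2415 CPM and are higher in replicate 1. Mir7-2 and Mir7-1 lie between 58.6 and 452 CPM and are lower in replicate 1. Reads of the arm that Mir7-1 and Mir7-2 share can be missing from their values.

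The order Mir7b, Mir671, Mir7-2, Mir7-1 was the same in both libraries. The values of Mir7b and Mir671 overlapped between the libraries, since Mir671 in replicate 1 stood above Mir7b in replicate 2, and those of Mir7-2 and Mir7-1 nearly met, at 202 CPM for the lower Mir7-2 value and 193 CPM for the higher Mir7-1 value. By reads that matched a single place, both Mir7b and Mir671 stood above both Mir7-2 and Mir7-1 in each library, with no overlap. A short RNA read is a whole molecule, so these levels are not divided by gene length. The counts do not measure the genes alike. Reads of the arm that Mir7-1 and Mir7-2 share can be missing from their counts, while Mir7b and Mir671 have no arm with an exact copy in another miRNA hairpin. The part of this difference in the order and in the gap was not tested. miR-7b-5p is 1 substitution away from miR-7a-5p, and how mismatches were handled in placing reads was not given in the sources used here.

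Ratios between genes within a library do not depend on how libraries are scaled. Mir7b over Mir671 was 1.03 in replicate 1 (95% exact interval 1.01 to 1.06) and 1.54 in replicate 2 (1.48 to 1.60). Mir7-2 over Mir7-1 was 3.44 in replicate 1 (3.04 to 3.91) and 2.34 in replicate 2 (2.16 to 2.55). Between the libraries the ratio of Mir7b to Mir671 thus differed by 1.49-fold and that of Mir7-2 to Mir7-1 by 1.47-fold, while each stayed above 1.

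The make-up of the miR-7 family moved more. Of the counts over the 3 miR-7 genes, Mir7b held 90.3% in replicate 1 (95% exact interval 89.8 to 90.8) and 68.9% in replicate 2 (67.9 to 69.8). Mir7-2 held 7.53% and 21.8%, and Mir7-1 held 2.19% and 9.31%, in replicates 1 and 2. The ratio of Mir7b to Mir7-1 and Mir7-2 together was 9.28 in replicate 1 and 2.21 in replicate 2, and these ratios differed by 4.20-fold (95% interval 3.91 to 4.51). These shares concern reads that matched a single place, and reads of miR-7a-5p would add to Mir7-1 and Mir7-2 only.

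The sum of single-place counts over the 3 miR-7 genes changed less than its parts, which moved in opposite directions. It was 2676 CPM in replicate 1 and 2068 CPM in replicate 2 (mean 2372 ± 429 CPM, SD, n = 2), a ratio of 1.29 (1.26 to 1.33). This ratio was not computed with other scalings. Set against Mir671, this sum of single-place counts was 1.15-fold in replicate 1 and 2.23-fold in replicate 2. All 4 genes together made up 0.501% of gene counts in replicate 1 and 0.299% in replicate 2.

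Between the libraries, the miR-7a genes and the other pair moved in opposite directions. Mir671 was 2.52-fold higher in replicate 1 (95% exact interval 2.43 to 2.61) and Mir7b 1.70-fold higher (1.65 to 1.75). Mir7-1 was 3.29-fold lower in replicate 1 (2.89 to 3.75) and Mir7-2 was 2.24-fold lower (2.08 to 2.41). All of these intervals leave out 1, so the gaps exceed counting error if each read is taken as a separate molecule. With 1 library on each side they describe these libraries, and no p-value was computed.

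Gaps of this size were common. A gene was called apart at 2-fold or more between replicate 1 and replicate 2, among the 579 genes whose counts summed to 10 or more. Of the 4 genes 3 were called, against 50.4% of all genes tested. Mir671 was called higher in replicate 1, against 20.0% of all genes, and Mir7-1 and Mir7-2 lower, against 30.4%. At 1.5-fold 4 of 4 passed, against 69.3% of all genes, and at 4-fold 0 of 4, against 21.4%. The gap of Mir7-1 was larger than that of 72.0% of the tested genes, and those of Mir671, Mir7-2 and Mir7b larger than that of 62.5%, 55.4% and 37.3%.

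The limit of 2-fold depends on scaling for 2 genes. Over all genes tested, at the 2-fold limit 116 stood higher in replicate 1 and 176 lower. The median log2 ratio was -0.27. With either edgeR's TMM or DESeq2's size factors the split became 152 and 129. TMM raised each log2 ratio by 0.36. Mir7b was then 2.18-fold higher in replicate 1 and past the limit, and Mir7-2 had a ratio of 0.573 and no longer reached it. The direction of all 4 genes was the same with TMM, DESeq2's size factors and the total of all reads.

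**Figure D3:**
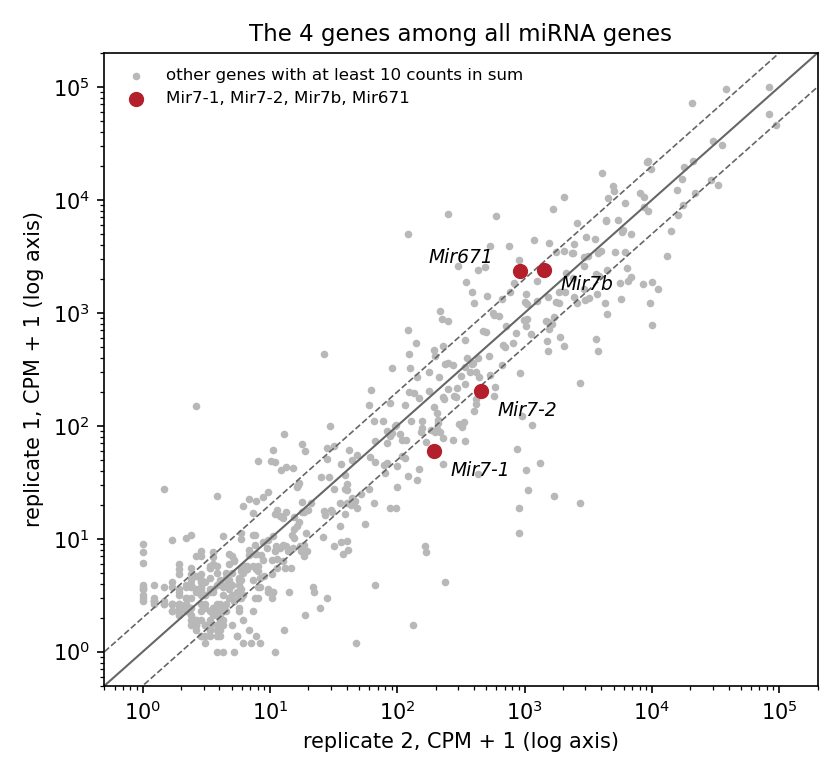
Each point is 1 of the 579 miRNA genes whose counts summed to 10 or more, at its CPM + 1 in replicate 1 (vertical, log axis) and replicate 2 (horizontal, log axis). The solid line marks equal levels and the dashed lines 2-fold gaps. Mir671 lies just beyond the upper dashed line, Mir7b inside it, and Mir7-2 and Mir7-1 beyond the lower one, all within the cloud of other genes.

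Genes with a copied arm, such as Mir7-1 and Mir7-2, were compared with the rest by description alone. RefSeq arms could be placed in the hairpin of 1018 of the 2202 genes. Of these, 61 have 1 of 2 arms whole in the hairpin of another locus, as Mir7-1 and Mir7-2 do, and 904 have none, as Mir7b and Mir671. Of the genes with 1 copied arm, 40 were detected, with a median of 103 CPM, and Mir7-2 stood below 14 of them and Mir7-1 below 18. Of the genes with no copied arm, 344 were detected, with a median of 129 CPM, and Mir7b stood below 66 of them and Mir671 below 70. Among genes tested between libraries, 15 of 43 with 1 copied arm were at least 2-fold lower in replicate 1 and 11 at least 2-fold higher. With no copied arm, 141 of 462 were lower and 86 higher. The median log2 ratio was -0.48 with 1 copied arm and -0.27 with none.

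miR-7 is also known from endocrine cells, so a fixed list of 4 genes, labelled islet and pituitary, was read beside it. Whether Mir217, Mir216a and Mir216b mark those cells was not tested. Mir375, a microRNA of islet and pituitary cells, was at 197 CPM in replicate 1 and 122 CPM in replicate 2, below Mir7b in each. Mir217 was at 2.92 and 66.1 CPM, Mir216a at 0.547 and 11.95 CPM, and Mir216b at 1.28 and 4.69 CPM. Of the 4 genes, 2 were detected in both libraries, 3 were at least 2-fold lower in replicate 1, and their summed level was 201 CPM in replicate 1 and 205 CPM in replicate 2. Of the 19 neuron-enriched genes, 6 had a higher mean CPM than Mir7b, though reads of copied arms can be missing from these means. That list had no common direction: 8 stood at least 2-fold higher in replicate 1 and 8 at least 2-fold lower, and its median log2 ratio was -0.71.

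The genes nearest to each of the 4 were found by Euclidean distance of log2(CPM + 1) over the 2 libraries, which is little to go on. Nearest to Mir7b were Mir154 (1904 CPM in replicate 1 and 1241 CPM in replicate 2, distance 0.40), Mir598 (0.57) and Mir221 (0.61). Nearest to Mir671 were Mir138-2 (2920 CPM and 894 CPM, distance 0.33), Mir27b (0.40) and Mir154 (0.51). Nearest to Mir7-2 were Mir500 (171 CPM and 412 CPM, distance 0.27), Mir186 (0.37) and Mir350 (0.40). Nearest to Mir7-1 were Mir9-3 (70.6 CPM and 166 CPM, distance 0.34), Mir101a (0.44) and Mir30c-1 (0.46). Mir30c-1 and Mir138-2 also have 1 of 2 arms with a copy at another locus, and Mir9-3 has 2 of 2. No other miRNA gene lies within 10000 bases of any of the 4.

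The partner RNAs were read for sites as sequence only. The motif GTCTTCC is the complement of the miR-7 seed and GGCTTCC that of the miR-671-5p seed, and each was searched on both strands. The strand opposite the annotated Cdr1 mRNA, from which Cdr1as is made, spans chromosome X from 61184005 to 61185558 in mm10 (1554 bases, GENCODE M21). Whether Cdr1as reaches beyond this window was not analysed, so the matches are those of the window and not of the whole circle. The window was read on both strands. The strand opposite the mRNA held GTCTTCC 79 times, with a median of 18 bases between starts and no overlaps, and the mRNA strand held it 0 times. The opposite strand of the first 1554 bases of 23495 other transcripts, the longest of each gene that is long enough, held it in 18.9%, and at most 11 times. On either strand it was in 30.5%. GGCTTCC was in neither strand of the Cdr1 window, and in 33.8% of the others on either strand, which says only that these letters are not in this window. Of the 79 matches, 78 had room for a context of 20 bases, and its 2 most frequent forms occurred 19 and 11 times. They are shown, at 1 of their places, with the seed match in capitals.
Cdr1 opposite strand, chrX:61184359-61184378, plus strand: ccgaaaatccaaGTCTTCCc
Cdr1 opposite strand, chrX:61184467-61184486, plus strand: ccagaaatccaaGTCTTCCc

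All 3 miR-7 genes share that seed, so these matches do not separate miR-7a from miR-7b. In the Oip5os1 (Cyrano) transcript, listed in GENCODE M21 as 1700020I14Rik (8300 bases, chromosome 2, plus strand), GTCTTCC occurred 2 times and GGCTTCC 1 time, with 0 on the other strand for each. Of 936 other genes with a transcript that long, 49.5% held GTCTTCC on the transcribed strand of the first 8300 bases, and 17.1% held it 2 times or more. On either strand GTCTTCC was in 79.7% and GGCTTCC in 79.9% of them. At 1 of the 2 matches the seed match is preceded, after a gap of 4 bases, by a run of 13 bases complementary to bases 11 to 23 of miR-7a-5p. Both stretches are in capitals.
Oip5os1 site, chr2:119602132-119602161, plus strand: taagaACAACAAAATCACcaatGTCTTCCa
The base that separates miR-7a-5p from miR-7b-5p, A10U, falls outside both stretches. The other match lacked such a run, with at most 3 bases.

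**Figure D4:**
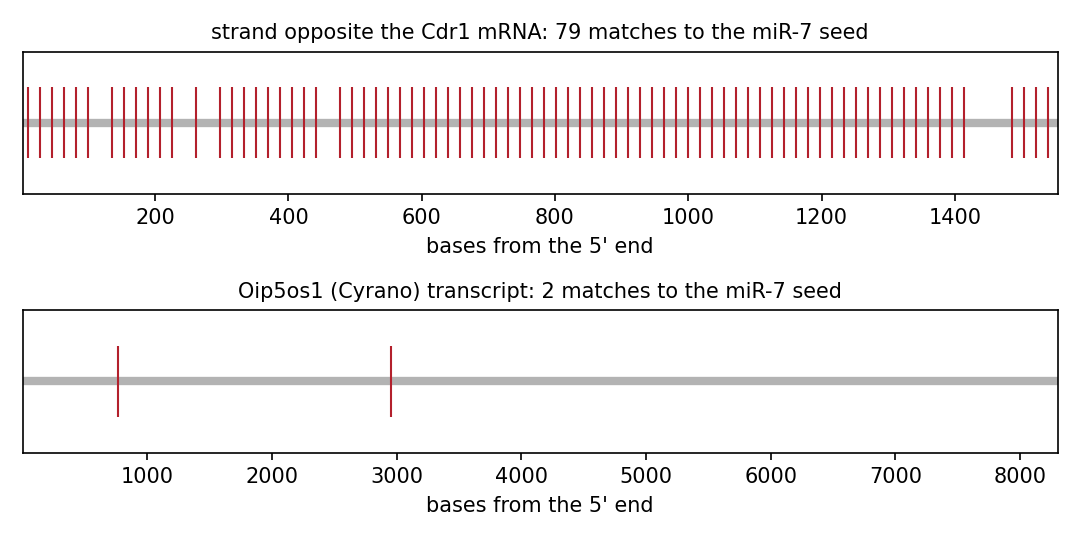
Places of the 7-base match to the miR-7 seed (red lines) along the strand opposite the Cdr1 mRNA (upper panel, 1554 bases, 79 matches) and along the Oip5os1 transcript (lower panel, 8300 bases, 2 matches), in bases from the 5′ end. The matches tile the upper window at an even spacing of 18 bases for most of its length.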

How the data were processed

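The authors deposited raw counts of reads for every miRNA gene, as whole numbers in 1 table without a header for each library. Per the deposited text beside each table, the assembly is mm10 and the annotation GENCODE M21. For the aligner, the trimming and the counting, tools and settings were not given in the sources used here. The 3 value columns were read from their totals as the count without strand, on the main strand and on the opposite strand. The main strand was used. Rows that name no gene (41.9% and 46.4% matching several places, 17.1% and 17.2% unmapped, 5.56% and 5.17% outside miRNA genes, in replicates 1 and 2) stayed out of library sizes. The libraries hold 15474606 and 13677083 reads.

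All 2202 identifiers matched GENCODE M21. CPM, means ± SD, exact Poisson and binomial (Clopper-Pearson) intervals at 95%, and ratios of replicate 1 over replicate 2 were computed in Python 3.11.15 with scipy 1.17.1. No genome sequence was used, so copies were sought in GENCODE transcripts, on both strands, and in hairpins. Counts cannot tell arms apart, and reads of the CAST/EiJ allele may be placed less often on mm10. TMM came from edgeR 4.0.16 and size factors from DESeq2 1.42.0.

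The genes named are the 4, the 3 nearest to each, and other miRNA genes with the same seeds or within 10000 bases. Named too are the 3 highest of the neuron list and all of the islet and pituitary list. Other lists are given as sums, beside which some genes chosen after their values were seen are named. Genes and lists were chosen with earlier results of these data known.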

Additional observations from a re-analysis of the deposited data

How the results depend on the processing

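Depth limits these genes little: the lowest count was 321, and a count of 0 would allow 0.547 CPM in replicate 1 and 0.703 CPM in replicate 2. There are only 2 libraries, and reads that match several places are not in the counts. No direction reversed. On the opposite strand each of the 4 levels was 0 CPM. Per 1000000 of all reads of the table, the mean levels of Mir7-1, Mir7-2, Mir7b and Mir671 were 40.4, 106, 649.9 and 558. The ratio of replicate 1 over replicate 2 for Mir7-1, Mir7-2, Mir7b and Mir671 was 0.390, 0.573, 2.18 and 3.23 with TMM and 0.391, 0.573, 2.18 and 3.24 with DESeq2 size factors. In the same order it was 0.345, 0.507, 1.93 and 2.86 with all reads, since each scaling moves all ratios alike. At 4-fold 0 genes of the 4 were called, against 21.4% of all genes tested, and at 2-fold with all reads 2 of 4, against 48.2%. Without replicate 1 or replicate 2, the mean levels ranged from 58.6 to 193 CPM for Mir7-1, 202 to 452 for Mir7-2, 1424 to 2415 for Mir7b and 926 to 2336 for Mir671, and Mir7b over Mir7-1 and Mir7-2 from 2.21 to 9.28. Counts without strand, 1 CPM added and other count filters moved no value beyond its spread or interval. No paired analysis was possible because there is 1 group.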
